A study of Mus musculus with 2 samples.

Results

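The 29 genes described here make cholesterol and fatty acids, control that synthesis, or move sterol inside the cell, and they were read in single cells of the mouse second heart field. They were taken as a list by gene symbol, and 29 of 29 were present in both deposited count matrices. They are 7 genes of the mevalonate steps (Acat2, Hmgcs1, Mvk, Pmvk, Mvd, Idi1 and Fdps), 11 genes of the later sterol steps (Fdft1, Sqle, Lss, Cyp51, Tm7sf2, Msmo1, Nsdhl, Hsd17b7, Ebp, Sc5d and Dhcr7), 5 regulators (Insig1, Insig2, Srebf1, Srebf2 and Scap), 4 fatty acid synthesis genes (Fasn, Acaca, Scd2 and Elovl6) and 2 sterol transport genes (Stard4 and Npc1). They are 29 of the 16388 genes that the matrices share.

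The cells came from wild-type mouse embryos at embryonic days E10.5 and E9.5, with 1 sample at each stage, no treatment, and no strain or number of pooled embryos stated. The barcode suffix of each cell names the dissected position, which gave 4 position libraries at E10.5 (560 posterior, 331 middle, 31 outflow tract and 45 anterior cells) and 3 at E9.5 (418 posterior, 61 middle and 54 anterior cells). The submitters label all cells as positive for Osr1, a transcription factor gene of the second heart field and foregut mesoderm, and how they were chosen is not given in the sources used here. With 1 sample a stage, the stage cannot be told apart from the embryos, the run or the depth, so stage differences are given as values with no test. Positions found at both stages were tested.

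Cells build cholesterol from acetyl-CoA. The mevalonate steps make the isoprene units that are joined to farnesyl pyrophosphate, which also feeds the lipid anchors of proteins, and the later steps close the sterol rings and trim them to cholesterol. When sterol is short, SCAP carries the SREBP transcription factors out of the endoplasmic reticulum, which INSIG proteins otherwise prevent, and the cut SREBP fragments switch on most genes of these pathways together. Cholesterol is also covalently attached to Hedgehog ligands, and the dissected region is patterned by Hedgehog signals from the foregut.

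Depth differed between the stages. The median cell held 5371 unique molecular identifiers (UMIs, the counted molecules) at E10.5 and 30202 at E9.5, and the library totals ran from 196584 to 3448474 counts at E10.5 and from 1296187 to 13647039 at E9.5. The E10.5 outflow tract and anterior libraries are the shallowest, so levels in CPM (counts scaled to a common library total) of their rarer genes rest on a few molecules. Osr1 was found in all libraries, at 317, 251, 168 and 185 CPM in the posterior, middle, outflow tract and anterior libraries of E10.5, and at 168, 122 and 71.7 CPM in the posterior, middle and anterior libraries of E9.5. Of 10 second heart field mesoderm markers, 10, 10, 8 and 5 were detected in those E10.5 libraries and 10, 10 and 9 in those of E9.5. Tbx5 and Gata4 were at 0 in the E10.5 outflow tract, the E10.5 anterior library lacked both and also Hand1, Hand2 and Fgf10, and the E9.5 anterior library lacked Tbx5. Cells of clusters with foregut or pharyngeal epithelium markers made up at most 16.1% of an E10.5 library, and 12.9, 34.4 and 72.2% of the posterior, middle and anterior libraries of E9.5. The E10.5 posterior and middle libraries shared 1 cell barcode, and every other pair shared 0.

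Because many of these genes answer to the same factors, the promoters of the members were searched for the letters those factors are known to bind. A gene counts as holding a motif when any of its promoter windows does, on either strand. The RefSeq promoter table (GRCm38.p6, 250 bases before to 50 bases after each start) held 23 of the 29 members. CCAAT, the box bound by NF-Y, was found in 14 of 15 sterol-step genes (93.3%) and in 19 of all 23 members (82.6%), against 41.1% of the 27025 genes in the table. GGGCGG, bound by the Sp1 family, was found in 14 of 15 sterol-step genes, against 38.2% of all genes. TCACNCCAC, the core of the sterol regulatory element, was found in Hmgcs1 alone among the 23, against 1.44% of all genes. Among the 14 sterol-step genes the CCAAT nearest to the start lay 8 to 132 bases before it, with a median of 33. A match is a description of the letters and no evidence of binding. The windows below are examples from the synthase Hmgcs1 and 5 further genes of the mevalonate and later sterol steps. Other genes with a match are not shown. What the search found in all of these windows is CCAAT alone, which 41.1% of all genes also hold. Each is written 5′ to 3′ on the strand of its gene, and capitals mark CCAAT or its reverse complement ATTGG and, in the first window of Hmgcs1, also the sterol regulatory element core.
Hmgcs1, chr13:119690163-119690234, plus strand: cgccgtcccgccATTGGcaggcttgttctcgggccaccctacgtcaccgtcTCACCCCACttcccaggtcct
Hmgcs1, chr13:119690281-119690335, plus strand: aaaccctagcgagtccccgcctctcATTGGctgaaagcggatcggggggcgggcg
Mvk, chr5:114444230-114444268, plus strand: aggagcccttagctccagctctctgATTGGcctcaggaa
Mvd, chr8:122443423-122443474, minus strand: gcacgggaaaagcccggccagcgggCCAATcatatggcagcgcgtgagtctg
Pmvk, chr3:89454380-89454434, plus strand: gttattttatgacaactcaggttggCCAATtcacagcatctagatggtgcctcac
Lss, chr10:76531518-76531572, plus strand: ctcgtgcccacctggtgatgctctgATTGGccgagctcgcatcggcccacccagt
Nsdhl, chrX:72918476-72918520, plus strand: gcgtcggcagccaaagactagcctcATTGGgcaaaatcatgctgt

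Summed over the 18 genes of the mevalonate and later sterol steps, the level was lower at E10.5 than at E9.5 in the posterior and middle libraries and slightly higher in the anterior one. At E10.5 the sum was 1195, 1136, 1434.5 and 1248 CPM in the posterior, middle, outflow tract and anterior libraries. At E9.5 it was 1968, 1880 and 1039 CPM in the posterior, middle and anterior libraries. At 1039 CPM the E9.5 anterior library thus lay below every E10.5 library. As log2 ratios of E10.5 over E9.5, with 95% exact Poisson intervals that cover counting error only, the sum differed by -0.72 (-0.77 to -0.67) at the posterior, -0.73 (-0.81 to -0.65) at the middle and 0.26 (0.08 to 0.44) at the anterior position. The mevalonate steps and the later sterol steps gave the same signs apart, at -0.79, -0.83 and 0.25 for the mevalonate steps and -0.62, -0.58 and 0.29 for the later sterol steps at the posterior, middle and anterior positions. The fatty acid genes differed in another way, with -0.08 (-0.17 to 0.00) at the posterior, -1.51 (-1.70 to -1.32) at the middle and -0.69 (-1.15 to -0.27) at the anterior position.

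**Figure D1:**
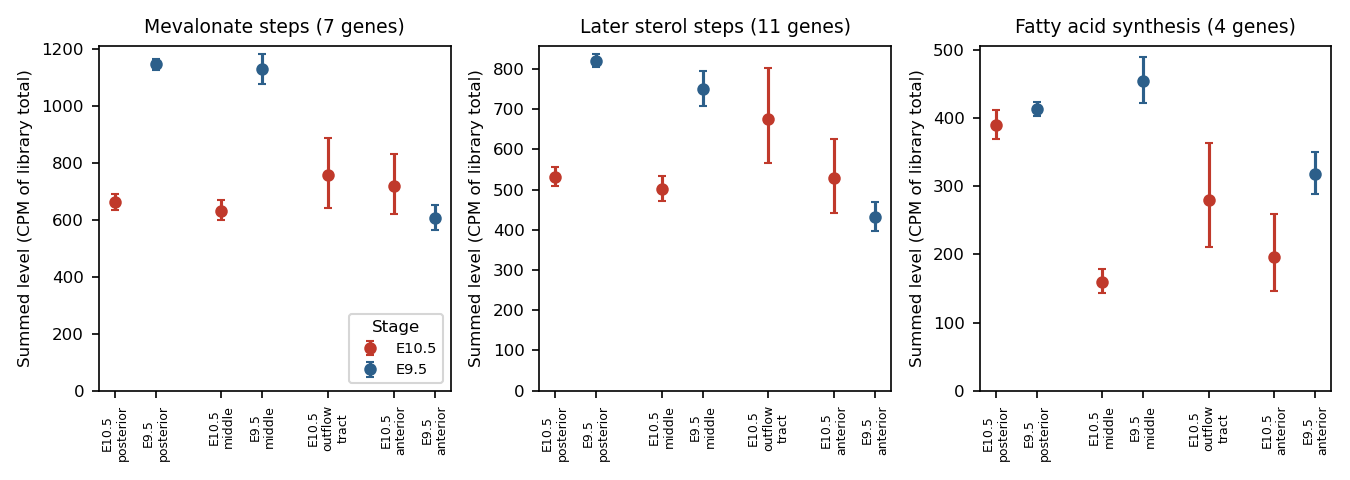
Summed level of the mevalonate steps, the later sterol steps and the fatty acid synthesis genes in each position library, in CPM of the library total; points are libraries (red E10.5, blue E9.5) and bars are 95% exact Poisson intervals for counting error only. For the mevalonate steps the E9.5 posterior and middle libraries stand at 1147 and 1129.9 CPM, above the other 5 libraries at 608 to 758 CPM, and for the fatty acid genes the E10.5 middle library stands lowest at 159.7 CPM.

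The most abundant mevalonate-step genes by counts were Acat2 and Fdps. Acat2 encodes the cytosolic thiolase that joins 2 acetyl-CoA, and it lies at chr17:12942890-12960747 on the minus strand of GRCm38. It stood at 139, 116, 178.0 and 94.5 CPM in the posterior, middle, outflow tract and anterior libraries of E10.5, against 272, 274 and 137 CPM in the posterior, middle and anterior libraries of E9.5. The log2 ratio of E10.5 over E9.5 was -0.97, -1.24 and -0.54 at the posterior, middle and anterior positions, and the anterior interval held 0 (-1.22 to 0.08). The E9.5 posterior and middle libraries were the highest of the 7 for Acat2. Its near-identical neighbour Acat3 had 1 count in the E10.5 libraries and 10 in those of E9.5, and how reads that match both were treated is not given in the sources used here. Fdps, at chr3:89093588-89101959 on the minus strand, encodes farnesyl pyrophosphate synthase. It had 111, 96.0, 132 and 134 CPM at E10.5 in the same order, against 257, 269.8 and 157 CPM at E9.5. Its log2 ratio was -1.21, -1.49 and -0.23 at the posterior, middle and anterior positions, so all 3 lay below 0, the anterior one with an interval that held 0. Among the other mevalonate-step genes, Hmgcs1, which makes HMG-CoA, the kinase Mvk and the isomerase Idi1 were lower at E10.5 at the posterior (-0.47, -0.67 and -0.72) and middle positions (-0.72, -0.45 and -0.47) and higher at the anterior position (0.63, 0.98 and 0.95). The decarboxylase Mvd had values below 0 at all 3 positions (-1.31, -0.74 and -0.85), the anterior one with an interval that held 0 (-2.54 to 0.48). The kinase Pmvk stood nearest to 0 (-0.18, 0.14 and 0.53).

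In the later sterol steps, the same rule of abundance named Msmo1 and Sqle. Msmo1 encodes a C-4 methylsterol oxidase, at chr8:64718139-64733792 on the minus strand. It had 102, 92.6, 137 and 90.6 CPM in the posterior, middle, outflow tract and anterior libraries of E10.5, against 167, 166 and 82.5 CPM in the posterior, middle and anterior libraries of E9.5. Sqle, at chr15:59315077-59331192 on the plus strand, encodes squalene epoxidase, a step that limits the flow to sterols. It had 86.4, 75.9, 96.7 and 78.8 CPM at E10.5, against 143, 127 and 55.5 CPM at E9.5. Both genes were lower at E10.5 at the posterior (log2 ratio -0.71 and -0.73) and middle positions (-0.84 and -0.74), and at the anterior position their intervals held 0 (0.13 and 0.50).

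Lss encodes lanosterol synthase, which closes the sterol rings, and lies at chr10:76531588-76557138 on the plus strand. It was the 1 member at least 2-fold lower at E10.5 at all 3 positions, against 1.69% of all genes. It had 9.86, 3.92, 10.2 and 3.94 CPM in the posterior, middle, outflow tract and anterior libraries of E10.5, from 34, 8, 2 and 1 counts, against 26.0, 29.4 and 13.9 CPM in the posterior, middle and anterior libraries of E9.5. The log2 ratio was -1.40, -2.90 and -1.82, and the anterior one rests on 1 count at E10.5, so its interval held 0. With each cell thinned to 4500 UMIs 0 members met that rule, and without epithelium-like and cardiomyocyte-like cells 1 did, which was Dhcr7 in place of Lss. Cyp51, the lanosterol demethylase, and Hsd17b7, a 3-ketosteroid reductase, were the 2 members with a value above 0 at all 3 positions, against 23.3% of all genes. Cyp51 had 117, 128, 193 and 118 CPM at E10.5, against 107, 106 and 67.9 CPM at E9.5, a log2 ratio of 0.14, 0.27 and 0.80 at the posterior, middle and anterior positions. Cyp51 overlaps Akap9 on the opposite strand. The strand setting of the counting is not given in the sources used here, so whether reads from the overlapping stretch were kept apart could not be checked. The same holds for Fdft1 with Ctsb, Srebf1 with Rai1, Elovl6 with Gm35986 and Npc1 with Gm15956, which are measured genes on the opposite strand, and Tm7sf2 overlaps Vps51 on its own strand. The log2 ratio of Akap9 was 1.12, 0.32 and -0.49 at the posterior, middle and anterior positions. Hsd17b7 had 24.6, 19.1, 30.5 and 15.8 CPM at E10.5, against 16.4, 13.1 and 6.94 CPM at E9.5, and its interval lay above 0 at the posterior position.

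Of the regulators, Srebf2 and Insig1 had the most counts. Srebf2, at chr15:82147181-82205379 on the plus strand, encodes SREBP2, the factor that drives cholesterol synthesis genes. It had 45.2, 24.5, 40.7 and 23.6 CPM in the posterior, middle, outflow tract and anterior libraries of E10.5, against 59.9, 74.3 and 49.4 CPM in the posterior, middle and anterior libraries of E9.5. All 4 E10.5 libraries lay below all 3 E9.5 libraries for Srebf2, and the log2 ratios were -0.40, -1.60 and -1.06 at the posterior, middle and anterior positions. Its E10.5 outflow tract and anterior levels rest on 8 and 6 counts, and the anterior interval held 0 (-2.56 to 0.14). Insig1, at chr5:28071363-28078662 on the plus strand, encodes an endoplasmic reticulum protein that holds SCAP back and is itself switched on by SREBP2. It had 41.8, 27.4, 45.8 and 31.5 CPM at E10.5, against 61.4, 66.8 and 27.8 CPM at E9.5, so it followed the sterol steps in having its lowest E9.5 level in the anterior library. Insig2, the second INSIG gene, had intervals that held 0 at all 3 positions, as did Srebf1, which encodes the factor better known for fatty acid genes. Scap was found at 0 to 10.4 CPM at E10.5 and at 11.6 to 14.8 CPM at E9.5. The 0 of Scap in the E10.5 outflow tract allows a level of up to 15.3 CPM, which is 3 counts of that library.

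Among the fatty acid genes, Scd2 and Elovl6 had the most counts. Scd2, at chr19:44293674-44306864 on the plus strand, encodes a stearoyl-CoA desaturase that places a double bond in saturated fatty acids. It had 229.7, 81.8, 148 and 67.0 CPM in the posterior, middle, outflow tract and anterior libraries of E10.5, against 223, 248 and 174 CPM in the posterior, middle and anterior libraries of E9.5. The E10.5 posterior library was at the level of E9.5 (log2 ratio 0.04), while the middle and anterior libraries were lower (-1.60 and -1.37). The anterior value rests on 17 counts at E10.5 and was -0.57 after each cell was thinned to 4500 UMIs. Elovl6, at chr3:129532355-129638495 on the plus strand, lengthens palmitate to stearate. It had 77.7, 43.6, 66.1 and 86.6 CPM at E10.5, against 103, 105 and 62.5 CPM at E9.5. Fasn, the fatty acid synthase, had log2 ratios of -0.23, -1.57 and -1.46, and Acaca, the acetyl-CoA carboxylase that makes malonyl-CoA, had 0.33, -1.59 and 0.15 at the posterior, middle and anterior positions. All 4 genes were thus lower by more than 2-fold at the middle position, as 16.7% of all genes were.

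Both sterol transport genes were rare. Stard4, at chr18:33199355-33213862 on the minus strand, encodes a soluble sterol carrier, and had 19.1, 13.7, 5.09 and 19.7 CPM in the posterior, middle, outflow tract and anterior libraries of E10.5, against 26.5, 29.4 and 21.6 CPM in the posterior, middle and anterior libraries of E9.5. Npc1, at chr18:12189692-12236400 on the minus strand, encodes the protein that moves cholesterol out of lysosomes, and had 16.2, 15.2, 0 and 11.8 CPM at E10.5, against 12.3, 16.9 and 15.4 CPM at E9.5. Stard4 was lower at E10.5 at the posterior and middle positions, and the intervals of Npc1 held 0 at all 3. The 0 of Npc1 in the outflow tract allows a level of up to 15.3 CPM, which is 3 counts of that library.

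Against all genes, the members stood lower at E10.5 at the middle and posterior positions and not at the anterior one. At the middle position 21 of 29 members had a counting interval wholly below 0, against 25.2% of the 10136 genes with at least 50 counts, and 0 had one above 0, against 16.7%. At the posterior position 18 of 29 lay below 0, against 27.9%, and 1, Hsd17b7, lay above it, against 28.4%. At the anterior position 6 of 29 lay on 1 side of 0, against 23.3%, of which 2 (Fasn and Scd2) were below it and 4 (Hmgcs1, Mvk, Idi1 and Cyp51) above it. The genes at least 2-fold lower numbered 5 at the posterior position, against 6.09% of all genes, 12 at the middle one, against 16.7%, and 5 at the anterior one, against 16.9%. The sterol steps held 13 of the genes below 0 at the posterior position and 13 at the middle one, in each case 6 of the 7 mevalonate-step genes and 7 of the 11 later ones. The median member had a log2 ratio of -0.47, -0.84 and 0.13 at the posterior, middle and anterior positions, against -0.01, -0.14 and 0.03 over all genes. Averaged over the 3 positions, 24 of 29 members (82.8%) lay below 0, against 53.7% of all genes, with a median of -0.43 against -0.06. A value below 0 at all 3 positions was found for 11 of 29 members, against 26.4% of all genes. By at least 2-fold at all 3 positions, 0 members were higher, against 3.1% of all genes. These are counts beside a background, with 1 sample a stage and no test.

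Markers of other cell types moved with the stage. The 7 erythroid markers summed to 2290 CPM (7 detected), 5501 CPM (7) and 1063 CPM (5) in the posterior, middle and anterior libraries of E10.5. At E9.5 they summed to 73.9 CPM (7 detected), 34.4 CPM (6) and 151 CPM (5). Alas2 was at 0 in both anterior libraries. The 6 cardiomyocyte markers summed to 285 CPM (6 detected), 84.3 CPM (5) and 138 CPM (4) in the E10.5 libraries in the same order, and to 2890 CPM (6), 277 CPM (5) and 678 CPM (6) in those of E9.5. Myh6 was at 0 in both middle libraries, and Tnnt2 and Tnni1 in the E10.5 anterior one. Against these sums, Actc1 was higher at E10.5 at the middle (45.6 against 1.25 CPM) and anterior positions (126 against 35.5 CPM). Actc1 thus made up most of the E10.5 anterior sum. Myh6 was also higher at the anterior position (3.94 against 2.31 CPM). Only clusters 3 and 5 held cells of both stages, with 1 and 10 cells of E10.5 and 34 and 7 of E9.5. The part of these markers and of the cell makeup in the stage difference was not tested.

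**Figure D2:**
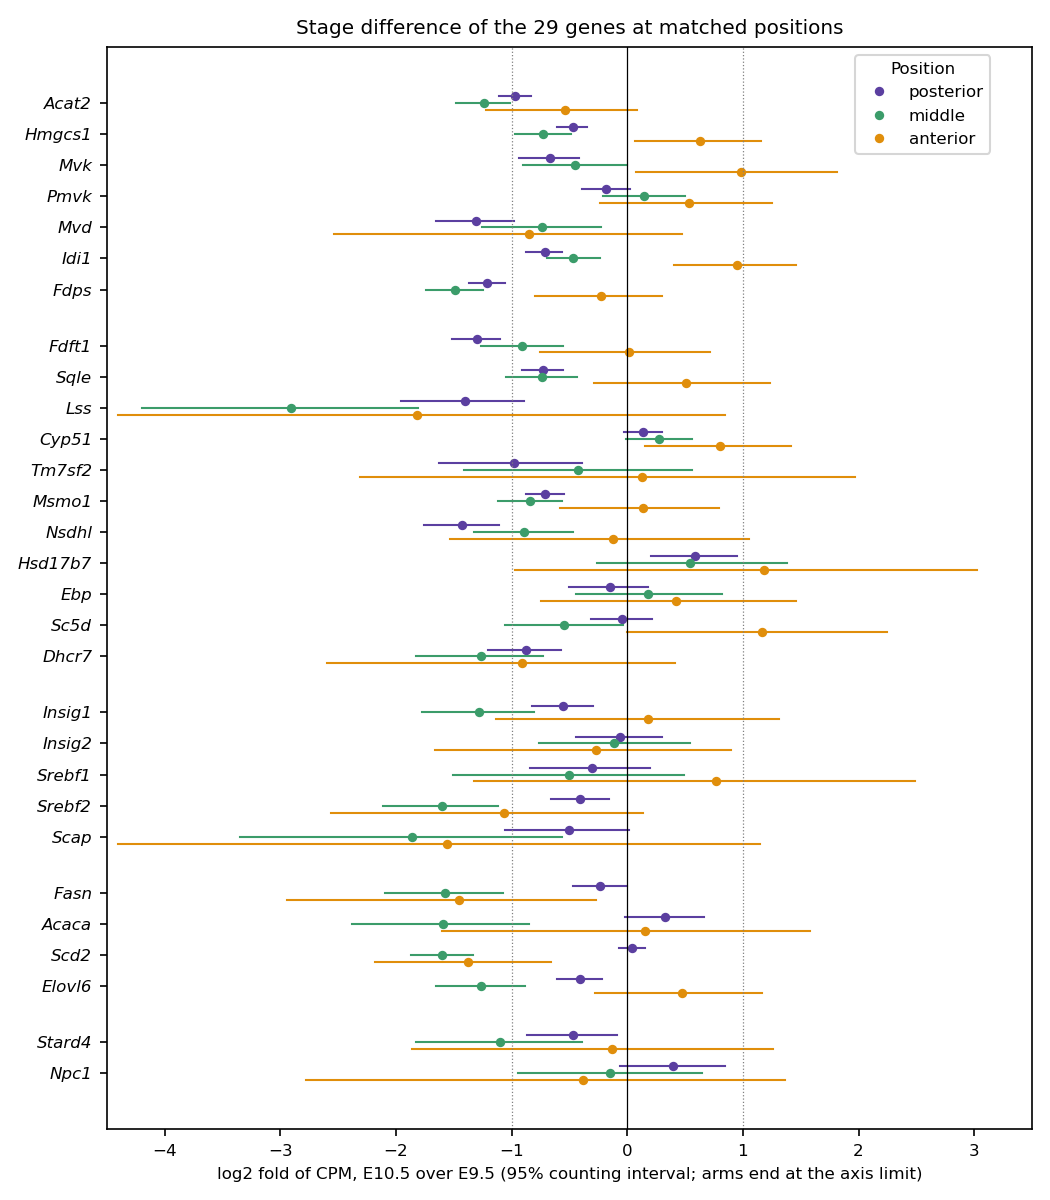
Log2 ratio of CPM, E10.5 over E9.5, for each of the 29 genes at the posterior (purple), middle (green) and anterior (orange) positions, with 95% exact Poisson intervals for counting error only; values left of 0 are lower at E10.5, dotted lines mark 2-fold, and arms that end at the axis limit run on. Posterior and middle points of most sterol-step genes lie left of 0, and the anterior points of Hmgcs1, Mvk, Idi1 and Cyp51 lie right of it.

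Other genes of the same pathways were read from lists outside the 29. Of 18 further sterol genes, 15 had at least 50 counts, and their median of the mean log2 ratio was -0.48. Of 17 further fatty acid synthesis genes, 12 had enough counts, with a median of -0.32, and the elongase Elovl5 was at least 2-fold lower at all 3 positions. Of 10 fatty acid oxidation genes, 8 had enough counts, with a median of 0.36, and the acyl-CoA dehydrogenase Acadl was at least 2-fold higher at all 3 positions (log2 ratio 1.51, 2.36 and 2.50 at the posterior, middle and anterior positions).

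Position was tested over 6 libraries, leaving out the outflow tract, with the stage as a term, so each position had 2 libraries. No member passed in any of the 3 comparisons by edgeR's quasi-likelihood test at a Benjamini-Hochberg adjusted p of 0.05. For posterior against anterior, 0 of 29 members passed, against 0.295% of the 9825 genes tested, and the lowest adjusted p of a member was 0.626. For posterior against middle, 0 of 29 passed, against 0.193%. For middle against anterior, 0 of 29 passed, against 0%. DESeq2 also called 0 members in all 3 comparisons.

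Without adjustment, 4 members had p under 0.05 by edgeR's quasi-likelihood test for posterior against anterior, all with a higher posterior level, against 6.05% of all genes. They were Acat2 (log2 fold 0.73 ± 0.25 SE), Sqle (0.79 ± 0.33), Insig1 (0.88 ± 0.36) and Scd2 (0.93 ± 0.38), with edgeR adjusted p-values of 0.626 for Acat2 to 0.758 for Sqle. For posterior against middle 0 members had such a p, against 3.85% of all genes, and for middle against anterior 2 had one (Acat2 and Nsdhl), against 3.51%. The fitted log2 fold of posterior over anterior was above 0 for 26 of 29 members with a median of 0.41, against 51.7% of genes and a median of 0.02. The median rests on 1 library, since without the E9.5 anterior library it was 0.0045, against 0.21 over all genes. Likewise, the median of middle over anterior was 0.31, against -0.01 over all genes, and -0.03 without that library, against 0.13.

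**Figure D3:**
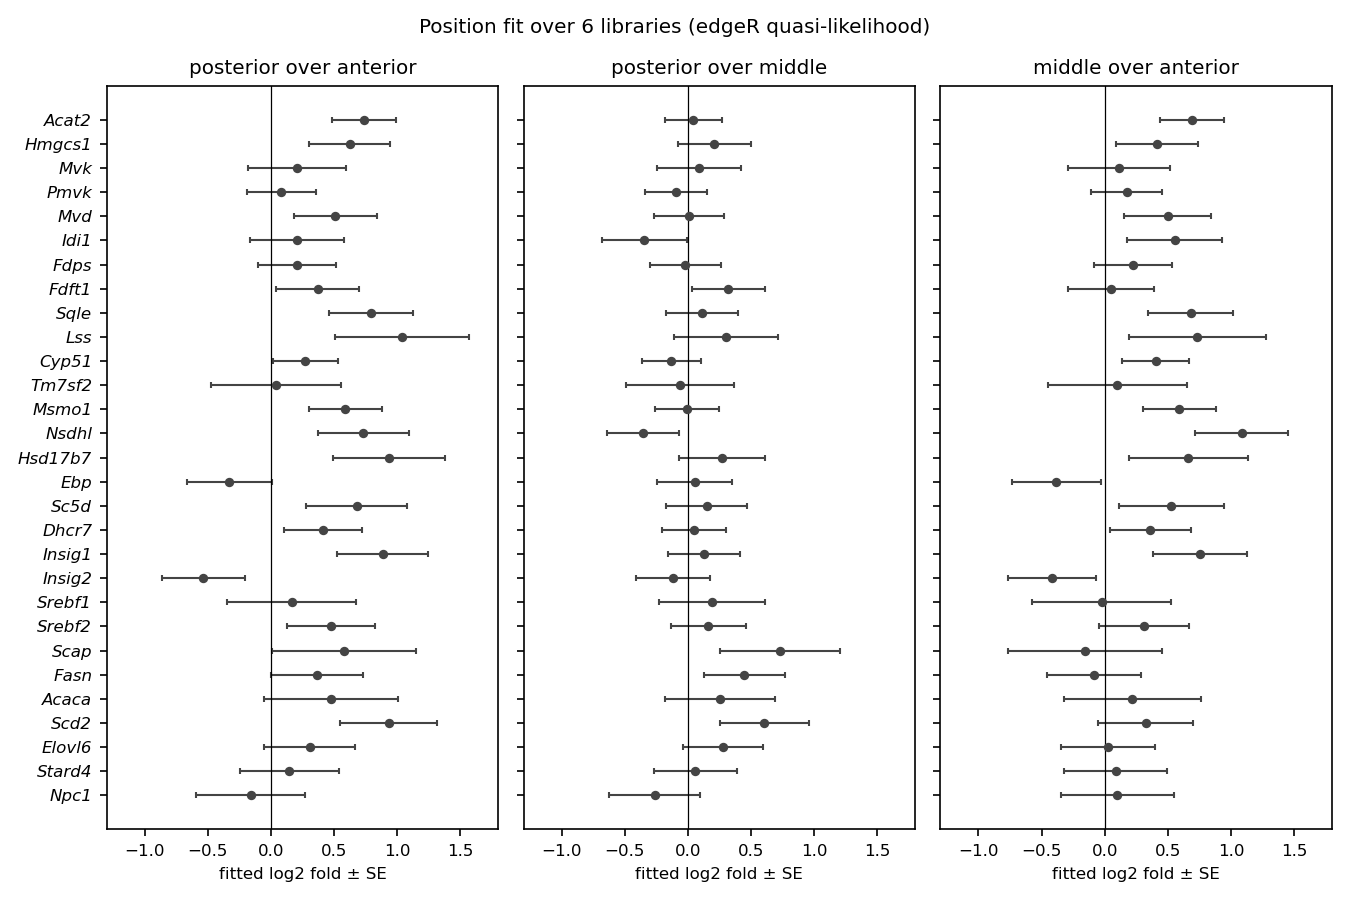
Fitted log2 fold and standard error of each of the 29 genes for posterior over anterior, posterior over middle and middle over anterior, from edgeR's quasi-likelihood fit over 6 libraries with the stage as a term. Most points of both comparisons with the anterior position lie right of 0 (26 and 24 of 29), with none past the adjusted threshold.

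Within E9.5 the anterior library stood low for the sterol steps. The posterior over anterior ratio of the 18 summed genes was 1.89 (1.79 to 2.00), the middle over anterior ratio was 1.81 (1.70 to 1.93), and the posterior over middle ratio was 1.05 (1.01 to 1.09), with 95% intervals for counting error only. The first and second ratios share the anterior library. For posterior over anterior at E9.5, 19 of 29 members had an interval wholly above a ratio of 1, against 16.2% of all genes, and 1, Insig2, had one below it, against 11.1%. The members with the largest of these ratios were Sqle at 2.58, Hsd17b7 at 2.36 and Sc5d at 2.32. For middle over anterior at E9.5, 17 of 29 lay above 1, against 10.8%, and 0 below, against 8.36%. At E10.5 the posterior over anterior ratio of the sterol steps was 0.957 (0.854 to 1.08), and 2 members (Scd2 and Fasn) lay above 1, against 8.8%, and 1 (Idi1) below, against 8.19%.

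The E9.5 anterior library also held the highest share of epithelium-like cells, 39 of 54, with 15 of 54 cells marked as doublets. In the E10.5 anterior library 12 of 45 cells were marked as doublets. All 9 epithelium markers were detected in the 3 E9.5 libraries, with summed levels of 723, 1059 and 1545 CPM in the posterior, middle and anterior libraries, and in the E10.5 anterior library 2 of 9 were detected, at 19.7 CPM. Within the E9.5 anterior library the sterol steps stood at 1018 CPM (953 to 1085) in the 39 epithelium-like cells and at 1089 CPM (979 to 1207) in the 13 other cells. In the E9.5 posterior library the epithelium-like cells had 2022 CPM and the other cells 1973 CPM. Of these 13 other cells, 12 were of cluster 2. At the middle position of E10.5 the 14 epithelium-like cells stood lower, with 606 CPM against 1203 CPM in other cells. At the middle position of E9.5 the 21 epithelium-like cells had 1317 CPM, against 2350 CPM in other cells. Without epithelium-like and cardiomyocyte-like cells, the log2 ratio of posterior over anterior at E9.5 was 0.86, against 0.92 with all cells, and without the cells marked as doublets it was 0.89. The part of the cell makeup and of the doublets in the low E9.5 anterior level was not tested.

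At E10.5 the fatty acid genes set the posterior library apart from the middle one, where the sterol steps did not. The sterol steps had a posterior over middle ratio of 1.05 (0.999 to 1.11), and the 4 fatty acid genes one of 2.45 (2.17 to 2.77). By gene the ratio was 2.81 (2.37 to 3.34) for Scd2, 2.34 (1.70 to 3.29) for Fasn, 2.64 (1.65 to 4.40) for Acaca and 1.78 (1.40 to 2.29) for Elovl6. In this comparison 11 of 29 members lay above 1, against 25.6% of all genes, and 2 (Idi1 and Nsdhl) below, against 13.3%. At E9.5 the fatty acid ratio of posterior over middle was 0.909 (0.841 to 0.983), on the other side of 1. With 1 library each, neither ratio nor their difference had a replicate check or a test.

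Hepatoblast markers were also higher in the E10.5 posterior library than in the middle one. All 6 were detected in the E10.5 posterior library, at 339 CPM in sum, against 3 of 6 at 4.41 CPM in the middle library, where Afp, Alb and Hnf4a were at 0, and 0 of 6 in the outflow tract and anterior libraries. At E9.5 their sum was 71.7, 17.5 and 7.71 CPM in the posterior, middle and anterior libraries. The fatty acid genes had 414, 455 and 319 CPM in those libraries of E9.5. In the E10.5 outflow tract the fatty acid genes had 279.8 CPM, against 159.7 CPM in the E10.5 middle library. Erythroid markers had 2290 CPM in the E10.5 posterior library and 5501 CPM in the middle one. Cluster 6, which has globin genes among its leading genes, held 6 of 560 posterior cells and 234 of 331 middle cells of E10.5. Mitochondrial genes took 2.83% of the counts in the E10.5 posterior library, the highest share of the 7 libraries, against 1.34% in the middle, 1.60% in the outflow tract and 0.912% in the anterior library. The part of these markers, of cluster 6 and of the mitochondrial share in the result was not tested. The higher level of the fatty acid genes was found in each of 5 cell clusters of the E10.5 posterior library with at least 10 cells. It was 372 to 409 CPM, including 405 CPM in cluster 10, which has Afp and Apoa2 among its leading genes. In cluster 8, which 4 E10.5 libraries share, the fatty acid genes had 409 CPM (319 to 516) in 25 posterior cells, 166 CPM (132 to 206) in 78 middle cells, 279.96 CPM in 20 outflow tract cells and 205 CPM in 41 anterior cells. The clusters were made from all variable genes, so these are descriptions.

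**Figure D4:**
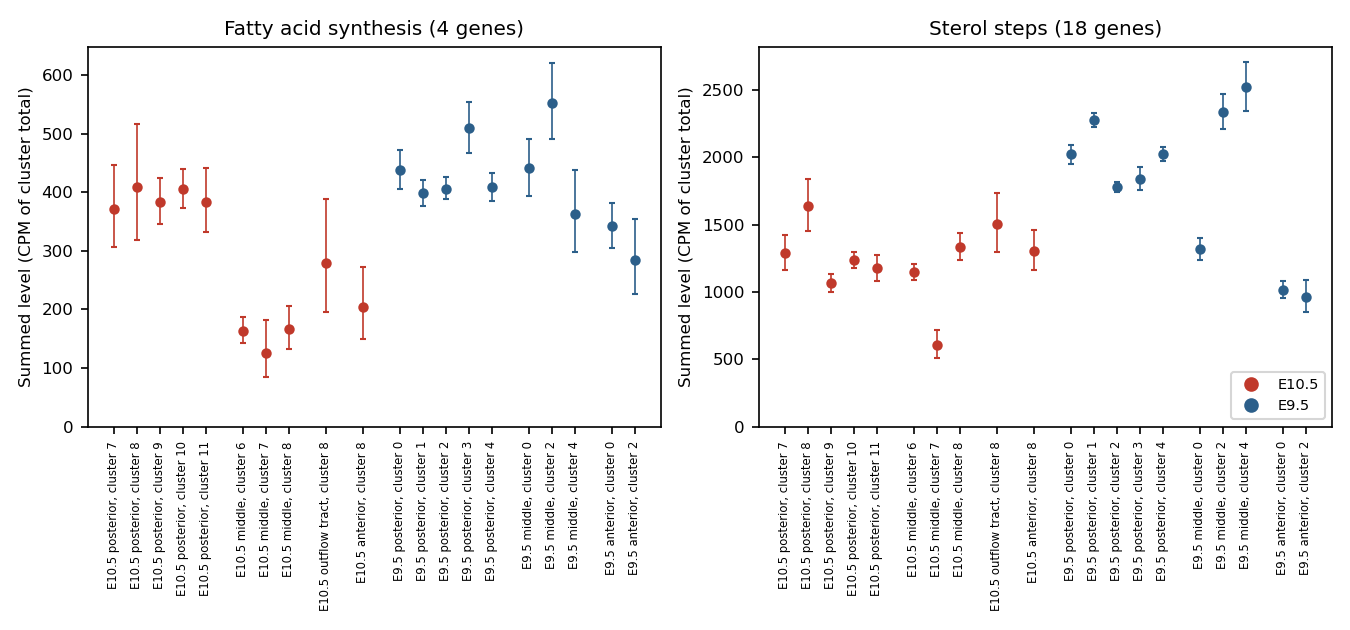
Summed level of the 4 fatty acid synthesis genes and of the 18 sterol-step genes in each cluster with at least 10 cells of a library, in CPM of the cluster total, with 95% exact Poisson intervals for counting error only; red is E10.5 and blue is E9.5. For the fatty acid genes the 5 clusters of the E10.5 posterior library lie at 372 to 409 CPM, and the 3 of the E10.5 middle library at 126 to 166 CPM.

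Levels per cell were compared after each cell was thinned to 4500 UMIs, which kept 471 of 560, 291 of 331, 31 of 31 and 40 of 45 cells of the posterior, middle, outflow tract and anterior libraries of E10.5, and 410 of 418, 61 of 61 and 54 of 54 cells of the posterior, middle and anterior libraries of E9.5. The mean cell then held 5.43, 5.22, 6.77 and 5.50 UMIs of the 18 sterol-step genes at E10.5, and 9.03, 9.21 and 3.93 at E9.5. As for the sums, the E9.5 posterior and middle libraries were the highest of the 7 and the E9.5 anterior library the lowest. Few cells lacked all 18 genes, with 2.12, 3.09, 0 and 5.0% at E10.5 and 0.732, 1.64 and 5.56% at E9.5. The 0 of 31 outflow tract cells allows a share of up to 9.68%, which is 3 cells of 31. For the fatty acid genes the mean was 1.73, 0.698, 1.29 and 0.925 UMIs at E10.5, and 1.86, 1.95 and 1.20 at E9.5. Scd2 was found in 63.9% of thinned posterior cells at E10.5 (59.4 to 68.3, exact Clopper-Pearson interval) and in 27.1% of middle cells (22.1 to 32.6). Before thinning these shares were 72.3% and 36.3%. All cell types use these genes, so a share of cells that stems from free RNA could not be measured.

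Across single cells, the sterol-step genes varied together in both posterior libraries. Pearson's r of each gene with the sum of the other sterol-step genes, over thinned cells, had a median of 0.195 over 15 sterol-step genes in 471 E10.5 cells and of 0.173 over 16 in 410 E9.5 cells. The background was all genes with a mean of at least 0.1 UMI per thinned cell, sterol-step genes included, and was not matched for abundance. Their median r was 0.00396 at E10.5 and 0.00475 at E9.5, and their 95th percentiles were 0.0827 and 0.0948. The cells of a library share its depth and its mixture of cell types, so r is given as a description.

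With all counts of each cell, the median was 0.205 at E10.5 and 0.455 at E9.5, whose cells hold more molecules. Msmo1 (0.638), Hmgcs1 (0.597), Cyp51 (0.580) and Idi1 (0.566) were near the top at E9.5, and Mvk (0.300) and Pmvk (0.114) were lower. Of the regulators, Insig1 varied with the sterol steps (0.505), while Srebf2 (0.089) and Insig2 (-0.0036) lay within the range of most other genes. Scd2 (0.314) and Elovl6 (0.308) stood above Fasn (0.148) and Acaca (0.105). Outside the 29, genes with a high r in the E10.5 posterior library over thinned cells included Stk16 (0.189), Rnf138 (0.168), Tuba1a (0.164) and Cacybp (0.164). In the thinned E9.5 cells they included Map1b, Aacs, Fam133b and Psmd3, of which Aacs encodes acetoacetyl-CoA synthetase, another supplier of the pathway.

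**Figure D5:**
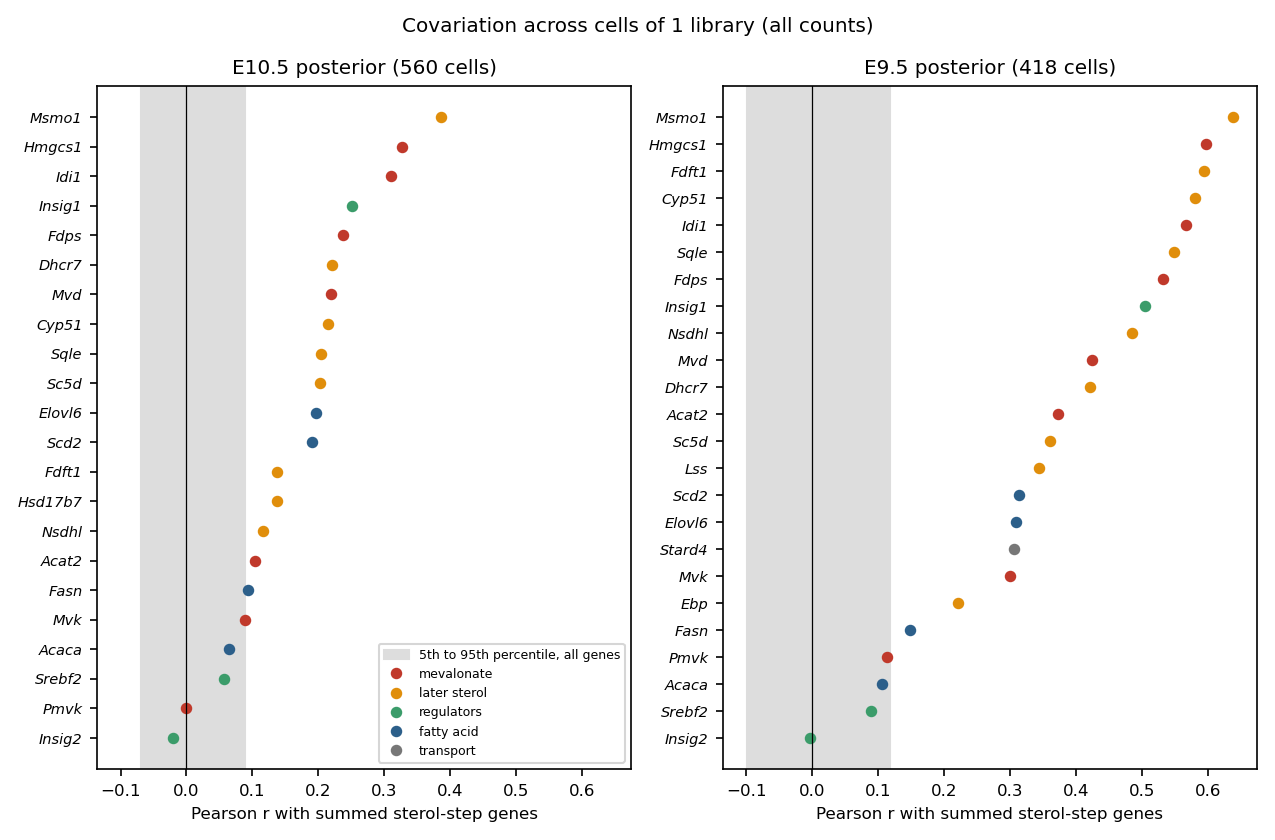
Pearson's r of each measured member with the sum of the other sterol-step genes across the cells of the E10.5 posterior library (left) and the E9.5 posterior library (right), from all counts of each cell on a log scale; colours give the role of the gene, and the grey band spans the 5th to 95th percentile over all genes. Most sterol-step genes lie right of the band, while Pmvk, Srebf2, Insig2 and Acaca lie inside it in both libraries, and Mvk in the E10.5 library alone.

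The outflow tract was dissected at E10.5 alone, and its library was compared with the anterior one of the same stage. The sterol steps had 1434.5 CPM in the outflow tract and 1248 CPM in the anterior library, and the fatty acid genes had 279.8 and 197 CPM. Of the 13 members with at least 20 counts in both together, 1 (Scd2) was at least 2-fold higher in the outflow tract, against 4.55% of 3185 genes, and 1 (Fdft1, squalene synthase, which overlaps Ctsb) at least 2-fold lower, against 4.4%. Acat2 at 1.88 (1.09 to 3.31) and Scd2 at 2.20 (1.17 to 4.27) had a ratio of outflow tract over anterior whose interval lay above 1, against 6.78% of those genes, and 0 members had one below 1, against 6.97%. At 196584 and 253908 counts, smaller differences of single members were not detectable at this depth.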

How the data were processed

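Single-cell RNA of the second heart field was deposited as 1 table of counts per stage, with genes in rows and cells in columns. The authors' deposited counts are whole numbers of UMIs per gene and cell with no normalization. Per the submitters' processing notes, Cell Ranger 3.0 and Seurat were used with mm10 (GRCm38). Per the labels' protocols the tissue was dissociated with trypsin and run on the Chromium system. The annotation version, the strand setting and the filter on cells are not given in the sources used here.

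Counts of the 16388 genes in both tables were summed over the cells of each of 7 position libraries, and levels are CPM of the library total (196584 to 13647039 counts). CPM is not divided by gene length, so levels were compared between libraries and not between genes. Position was tested with edgeR 4.0.16 in R 4.3.3 (TMM, filterByExpr, quasi-likelihood test, position and stage as terms), which left 9825 genes, all 29 members among them, and 2 residual degrees of freedom. The 2 libraries of a position come from different stages, so the p-values measure the spread of the position difference between the 2 samples. The stage term is the replicate block of this design, since the libraries of a stage come from 1 sample, as the labels state. DESeq2 1.42.0 was the other tool. Stage ratios have exact conditional Poisson intervals and no test. Genes needed 50 counts over the 6 libraries.

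Cells were clustered with scanpy 1.11.5 (counts per 10000, 2000 variable genes, 20 components, 15 neighbours, Leiden resolution 0.6), which gave 12 clusters. A name needed at least 3 markers. Clusters 6, 9, 10 and 11 had 5, 3, 4 and 3 erythroid markers up and were left unnamed. Scrublet marked 48 of 1500 cells, which were kept and left out in an alternative. Each role group's 2 members with the most counts, those called by position and those at least 2-fold apart at all 3 positions are given with all libraries. The rest are given by ranges and counts, and any other named member was chosen after its values were seen. The members and lists were chosen with earlier results of these data known. Coordinates are from GENCODE vM21, which matched 16229 of the 16388 symbols (99.03%). The fits and ratios were tested on simulated data. Some genes of the lists outside the 29 are not reported here.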

Additional observations from a re-analysis of the deposited data

Results flagged for a closer look

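In 6 results the log2 ratio of E10.5 over E9.5 had the opposite sign at the anterior position from both the posterior and the middle position, with counting intervals that left out 0 at all 3 positions. The anterior values were 0.2455 for the summed mevalonate steps, 0.2913 for the summed later sterol steps and 0.2647 for both together. Among single genes they were 0.6261 for Hmgcs1, 0.9799 for Mvk and 0.9453 for Idi1. The posterior and middle values of all 6 lay below 0. Fdft1, Sqle, Tm7sf2, Msmo1, Sc5d, Insig1, Srebf1 and Elovl6 had the same signs, with an interval that held 0 at 1 or more positions. The difference between positions was not tested, since each position has 1 library a stage. The E9.5 anterior library that enters all 6 holds 54 cells, 39 of them epithelium-like and 15 marked as doublets. The E10.5 anterior library, which also enters all 6, holds 45 cells, 0 of them epithelium-like and 12 marked as doublets.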

How the results depend on the processing

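The number of all genes called by position depended on the processing. For posterior against anterior it was 29 in the fit described, 45 with DESeq2, 260 with no filter on low counts, 0 without the stage term (no replicate block) and 95 to 332 with 1 library left out. For posterior against middle it was 19, and 33, 178, 0 and 37 to 231 in the same settings. For middle against anterior it was 0, and 4, 64, 0 and 14 to 123, and it was 5 without epithelium-like and cardiomyocyte-like cells. A member was called in 4 of 12 settings for posterior against anterior and in 1 of 12 for posterior against middle. These were Scd2 with no filter (adjusted p 0.0232), Sqle without the E10.5 anterior library (0.0477), Hmgcs1 and Sqle without the E10.5 posterior library (lowest 0.0124), and Scd2 without the E9.5 posterior library (0.000282, and 0.00202 against middle), all by edgeR with Benjamini-Hochberg adjustment. The cause was not tested. The count of members at least 2-fold lower at E10.5 at all 3 positions was 1 (Lss, but Dhcr7 without epithelium-like and cardiomyocyte-like cells), and 0 after thinning, 3 at 1.5-fold, and 1 to 5 with 1 position left out (2 without the anterior and 5 without the posterior one). The median r of the E9.5 posterior library was 0.173, and 0.455 without thinning, where cells keep more molecules. Chosen after seeing the data, thinning gave log2 ratios of 0.49 for the sterol steps at anterior, -0.82 at middle, -0.57 for Scd2 at anterior and 1.20 for the E9.5 sterol ratio of posterior over anterior (0.84 with TMM), and leaving out named cells gave -0.97 for the sterol steps at middle. Of the 127 settings for the main results 38 moved or changed the value or count and 89 did not. Of 256 settings for the mean ratio of single members, 253 moved it by less than its standard deviation over the 3 positions. Settings with 1 position left out could not move it by that much, so this count is no measure of stability. Depth limits the E10.5 anterior and outflow tract libraries most.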
